A study of Homo sapiens with 12 samples.

Results

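The 10 genes described here lie on the short arm of human chromosome 3, at 3p21.31, on both sides of a single LTR5HS, the regulatory end sequence left by a young family of endogenous retroviruses (HERV-K, HML-2). They are CACNA2D2, TMEM115, CYB561D2, NPRL2, ZMYND10, RASSF1, TUSC2, HYAL2, C3orf18 and HEMK1. They were chosen by name, and all 10 were found among the 26641 genes of the count table. RNA had been sequenced from NCCIT, a human embryonal carcinoma line, after a catalytically dead Cas9 had been brought to LTR5HS across the genome. dCas9-VPR carries an activation domain (CRISPRa) and dCas9-KRAB a repression domain (CRISPRi).

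There were 6 lines, each with 1 fusion and 1 guide array, and each gave 2 replicate libraries, or 12 in all. The LTR5HS Sp array holds guides that S. pyogenes dCas9 can load and is called recruitment here. The LTR5HS Sa array holds guides with a scaffold for another Cas9, and the nontarget Sp array holds guides without a target in the genome. These arrays were pooled as control, which gave 2 recruitment and 4 control libraries with each fusion. All lines, controls included, carried a doxycycline-inducible fusion that was induced for 4 days, and were drug-selected populations with integrated transgenes rather than single clones. With each fusion 1 line carried the recruitment array, so a difference between recruitment and control, or between dCas9-VPR and dCas9-KRAB cells, cannot be told apart from a difference between lines.

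The interval that holds these genes is often lost in lung and other tumours, and several of them were first studied as candidate tumour suppressors of that region. CACNA2D2 encodes an auxiliary subunit of voltage-gated calcium channels, the alpha2delta protein that helps the pore-forming subunit reach the plasma membrane. An LTR can act on the genes around it as an enhancer or a promoter. The fusions bring an activator or a repressor to the LTR itself, so a rise with the activator does not measure what the LTR does unaided.

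The guide sites next to CACNA2D2 are shown first, because they fix the point from which every distance below was measured. Of the 12 guides in the array, 5 had a perfect match followed by an NGG motif there, between positions 50520287 and 50520697 of chromosome 3 (hg38), a span of 411 bp that overlapped 0 annotated genes. In the lines below the NGG motif is in capitals.
LTR5HS-4, chr3:50520287-50520305, plus strand: agcccgacacccgtaaAGG
LTR5HS-8, chr3:50520300-50520318, plus strand: taaagggtctgtgctgAGG
LTR5HS-9, chr3:50520389-50520407, minus strand: gacattccattgcccaGGG
LTR5HS-2, chr3:50520452-50520470, plus strand: aaaaccgccttagggcTGG
LTR5HS-1, chr3:50520679-50520697, plus strand: tactaagggaactcagAGG

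With 1 mismatch allowed, 8 of the 12 guides matched this LTR5HS. The added sites are shown with the mismatched base and the NGG motif in capitals, and positions were counted from 1 at the 5′ end of the guide.
LTR5HS-7, chr3:50520207-50520225, minus strand, T6G: aacctGggacaataccTGG
LTR5HS-3, chr3:50520452-50520470, plus strand, T6C: aaaacCgccttagggcTGG
LTR5HS-11, chr3:50520810-50520828, plus strand, G6A: gaaacAcccacaggtgTGG

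Across the genome the 12 guides had 2938 perfect sites. Sites no more than 1000 bp apart were joined into 950 groups, and the 648 matched by at least 2 guides were kept. They were found by guide match alone, so that not all of them need be LTR5HS. The median group was matched by 4 guides and the fullest by 7, and 264 groups (40.7%) were matched by at least 5 guides, as the group next to CACNA2D2 was. The next perfect site on chromosome 3 lay 3260 kb away, so that every distance given for the 10 genes is to this 1 LTR5HS.

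The annotated transcription start of CACNA2D2 lay 16.7 kb from the nearest of these sites, which are upstream of the gene. CACNA2D2 runs away from the LTR5HS on the minus strand (chr3:50362613-50504244). On the far side of CACNA2D2, between 160.8 and 197.5 kb from the sites, lay the starts of TMEM115, CYB561D2, NPRL2, ZMYND10, RASSF1, TUSC2 and HYAL2. On the other side of the LTR5HS, C3orf18 (chr3:50558025-50571027, minus strand) started at 47.1 kb and HEMK1 (chr3:50569152-50596168, plus strand) at 48.8 kb. CACNA2D2 was thus the only 1 of the 10 with a start within 25 kb.

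The promoter sequence of CACNA2D2 that spans its annotated start (RefSeq, GRCh38.p14, 250 bases before to 50 after the start) is printed because the largest changes below were in this gene while the matched guide sites lay outside it. CpG pairs are in capitals.
CACNA2D2, chr3:50503585-50503884, minus strand: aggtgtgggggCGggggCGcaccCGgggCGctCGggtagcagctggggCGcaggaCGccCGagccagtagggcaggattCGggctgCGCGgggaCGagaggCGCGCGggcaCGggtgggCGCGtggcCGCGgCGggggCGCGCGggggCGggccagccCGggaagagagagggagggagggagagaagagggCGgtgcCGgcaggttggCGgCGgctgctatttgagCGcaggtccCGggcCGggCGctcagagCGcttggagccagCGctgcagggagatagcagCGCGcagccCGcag
It held 39 CpG pairs (the motif CG, which reads the same on both strands), and 8.71% of the 35116 promoters in the table held as many. The best match of any of the 12 guides beside an NGG motif in this window had 6 mismatches, and for the promoters of all 10 genes it had between 5 and 7. A second CACNA2D2 promoter in the table, chr3:50504195-50504494, held 5 CpG pairs.

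Counts per library summed to between 13601701 and 69797411, and the deepest, dCas9-KRAB nontarget Sp replicate 2, was 2.81 times the next. Levels are given as CPM, a gene's count scaled to the normalized size of its library. The 10 genes had between 24 and 16684 counts in every library, so depth left none of them near the limit of 3 counts (0.0455 to 0.233 CPM). All 12 embryonal carcinoma and pluripotency markers were detected in each group. Their summed level was 1051 to 1087 CPM in dCas9-VPR recruitment and 1115 to 1755 CPM in dCas9-VPR control libraries. With dCas9-KRAB it was 4193 to 4669 and 4311 to 5098 CPM. In the controls the mean of each of the 12 was lower with dCas9-VPR than with dCas9-KRAB. NANOG was at 2.39 against 150 CPM and TDGF1 at 13.9 against 188 CPM. UTF1 was at 4.29 against 93.0 CPM and POU5F1 at 14.2 against 69.6 CPM. With dCas9-VPR 3 of the 12, SOX2, DNMT3B and UTF1, fell and 0 rose, and with dCas9-KRAB 0 passed in edgeR or DESeq2 and 5 had an unadjusted p under 0.05. Of 14 markers of differentiated cells, T (TBXT), SOX17, AFP, ALB, CGA and PTPRC stayed under 1 CPM in each group, and GATA3, GATA6 and COL1A1 rose with dCas9-VPR, and GATA3 with dCas9-KRAB. Of the 14, 8 were tested with dCas9-VPR and 37.5% of them passed, where 15.7% of all genes passed as higher. With dCas9-KRAB 7 were tested and 14.3% passed, where 0.831% of all genes passed as higher. The summed level of the 14 was 3290 to 3319 CPM with dCas9-VPR recruitment and 422 to 603 CPM in its controls. Without COL1A1 it was 313 to 393 and 332 to 543 CPM, most of it VIM. Without COL1A1 and VIM it was 34.15 to 44.26 CPM with dCas9-VPR recruitment and 16.06 to 21.93 CPM in its controls. The part of these markers in the results below was not tested.

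CACNA2D2 changed with both fusions, and in opposite directions. With dCas9-VPR its level was 798 and 892 CPM in the recruitment libraries. In the control libraries it was 45.3 and 47.6 CPM with LTR5HS Sa and 41.7 and 50.3 CPM with nontarget Sp. The groups were far apart, and the control arrays overlapped each other. The mean was 845 ± 66.1 (SD, n = 2) against 46.2 ± 3.61 CPM (SD, n = 4). The log2 fold change was 4.19 (SE 0.11, 18.3-fold), with an adjusted p of 1.31e-06 (edgeR's quasi-likelihood test, p adjusted by the Benjamini-Hochberg method over all genes tested). In these bulk libraries a change in RNA per cell cannot be told apart from a change in the share of cells with the RNA. Among 26641 genes CACNA2D2 moved from the 5091st highest mean CPM in control to the 104th in recruitment libraries. Its p ranked 2nd and its fold change 190th from the highest of the 16271 genes tested.

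With dCas9-KRAB the order was the reverse. CACNA2D2 was at 13.6 and 15.98 CPM in the recruitment libraries. The controls had 68.7 and 72.8 CPM with LTR5HS Sa and 57.1 and 57.8 CPM with nontarget Sp. Each recruitment library lay under each control library. The mean was 14.8 ± 1.67 (SD, n = 2) against 64.1 ± 7.86 CPM (SD, n = 4), a log2 fold change of -2.11 (SE 0.16, 4.32-fold lower, adjusted p = 7.86e-05 by the same test). Its fold change ranked 153rd from the lowest and its p 31st of 15520 genes. CACNA2D2 still had 236 and 243 counts in these libraries. Its log2 fold changes with the fusions differed by 6.31 (SE 0.20, adjusted p = 5.34e-10 in edgeR's interaction test).

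**Figure D1:**
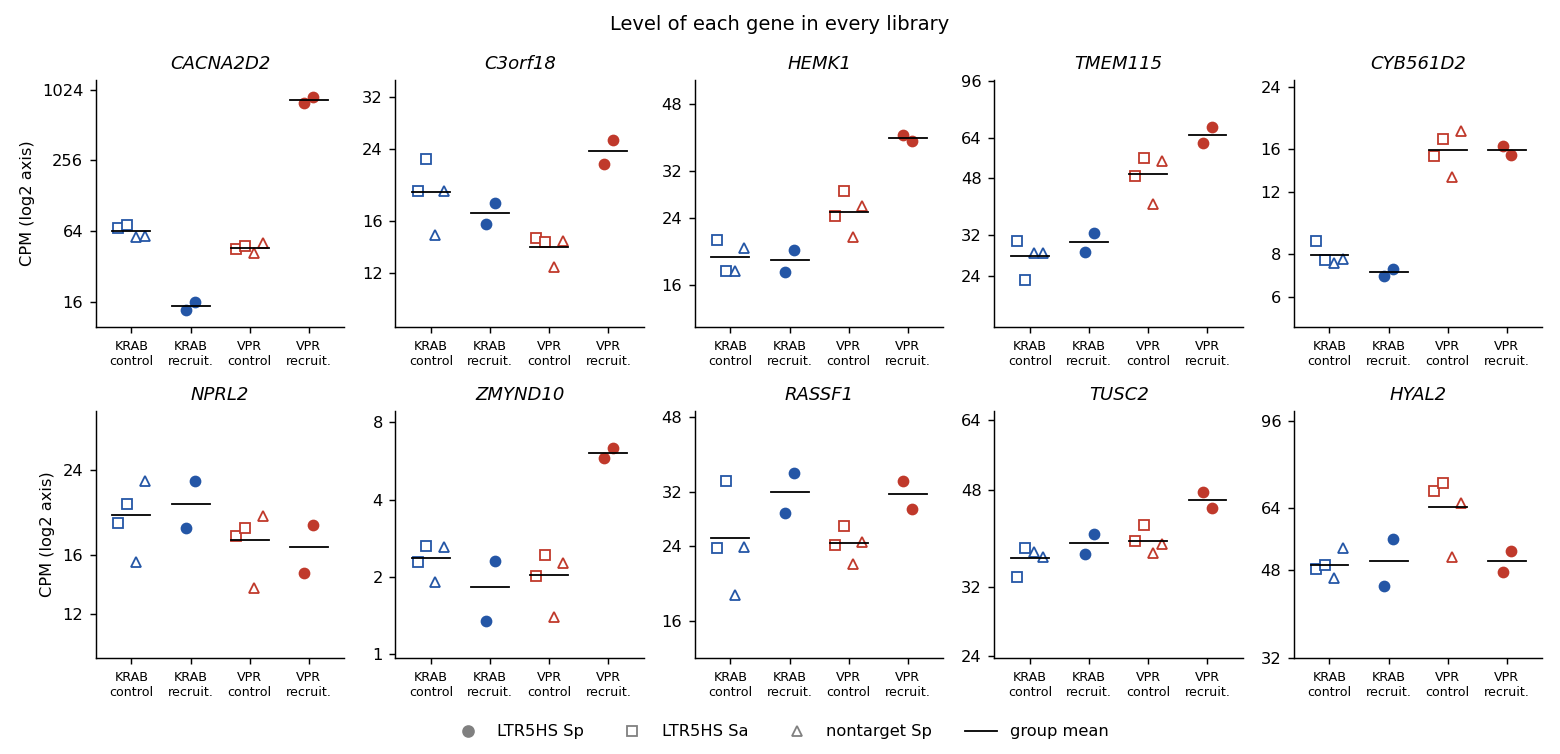
Level of each of the 10 genes in CPM on a log2 axis, in panels ordered by distance from the guide sites. Each symbol is 1 library, filled for recruitment (LTR5HS Sp) and open for control (squares LTR5HS Sa, triangles nontarget Sp), blue for dCas9-KRAB and red for dCas9-VPR, and lines are group means. CACNA2D2 spans 13.6 to 892 CPM, and the other genes vary over a much smaller range.

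CACNA2D2 was the 1 gene of the 10 that passed the threshold with both fusions. With dCas9-VPR 4 of the 10 genes passed, at an adjusted p under 0.05, and all 4 were higher with recruitment. Of all 16271 genes tested, 28.0% passed in either direction, 15.7% as higher and 12.3% as lower. The median log2 fold change was 0.39 over the 10 genes and -0.02 over all genes tested. With dCas9-KRAB CACNA2D2 alone passed, as lower, where 2.77% of all genes passed, 1.94% as lower and 0.831% as higher. The median over the 10 genes was -0.0042 and over all genes 0.000477. The interaction of recruitment and fusion passed for 4 of the 10, against 21.0% of the 16673 genes tested.

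**Figure D2:**
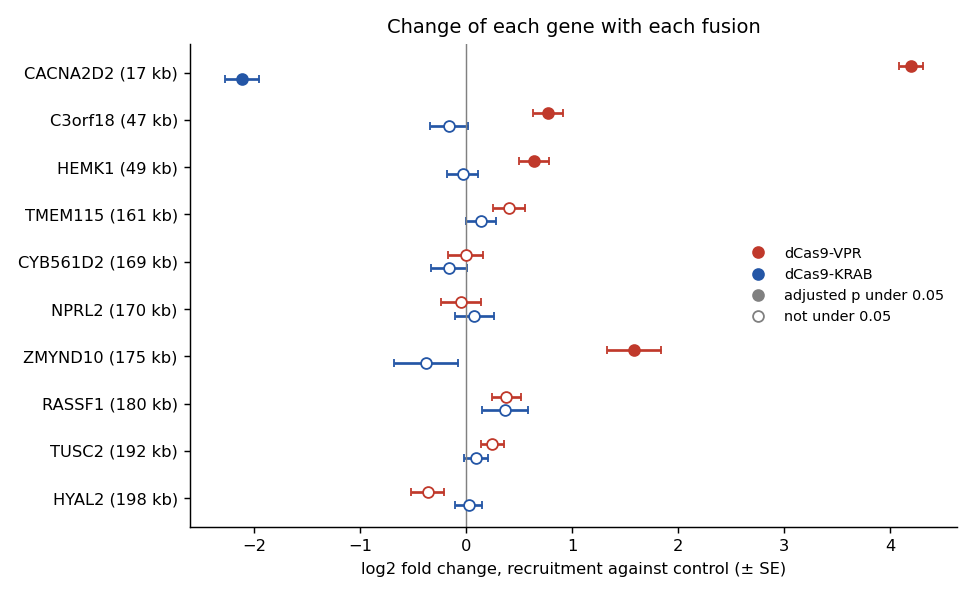
Log2 fold change of recruitment against control for each of the 10 genes, ordered by distance from the guide sites in kb, with dCas9-VPR in red and dCas9-KRAB in blue. Bars are the SE, and filled points passed an adjusted p of 0.05. CACNA2D2 is filled in both directions, at 4.19 and -2.11, and ZMYND10, C3orf18 and HEMK1 are filled with dCas9-VPR.

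C3orf18 and HEMK1 form the pair nearest to the LTR5HS on its other side, and both rose with dCas9-VPR. C3orf18 encodes a small, little-studied protein. It was at 22.1 and 25.2 CPM with recruitment, 14.5 and 14.3 CPM with LTR5HS Sa, and 12.4 and 14.4 CPM with nontarget Sp. Recruitment and control did not overlap, and the log2 fold change was 0.77 (SE 0.14, 1.71-fold, adjusted p = 0.00484 by edgeR). HEMK1, a methyltransferase that modifies release factors of translation in mitochondria, was at 39.7 and 38.3 CPM with recruitment, 24.4 and 28.3 CPM with LTR5HS Sa, and 21.4 and 25.9 CPM with nontarget Sp. Here too the groups were apart, at a log2 fold change of 0.64 (SE 0.14, 1.56-fold, adjusted p = 0.0102).

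The call of HEMK1 was lost on leaving out either dCas9-VPR recruitment library, and that of C3orf18 on leaving out replicate 2 only. Each such fit left 1 library in that arm, and the fold changes stayed positive. For C3orf18 the log2 fold change without replicate 1 was 0.87. Without dCas9-VPR LTR5HS Sp replicate 2 the log2 fold change was 0.66 for C3orf18 (adjusted p = 0.0694 by edgeR) and 0.66 for HEMK1 (adjusted p = 0.0700). Without replicate 1 it was 0.62 for HEMK1 (adjusted p = 0.0831). With dCas9-KRAB C3orf18 was at 15.8 and 17.7 CPM with recruitment and 14.8 to 22.7 CPM in control, and its groups overlapped (log2 fold change -0.16, SE 0.18, adjusted p = 0.742). HEMK1 was at 17.4 and 19.8 CPM with recruitment and 17.4 to 21.0 CPM in control (log2 fold change -0.03, SE 0.15, adjusted p = 0.950). The fold changes with the fusions differed by 0.93 for C3orf18 (SE 0.23, adjusted p = 0.0112) and by 0.68 for HEMK1 (SE 0.20, adjusted p = 0.0273). For C3orf18 the difference did not pass without dCas9-VPR LTR5HS Sp replicate 2 (0.84, adjusted p = 0.0611 in edgeR's interaction test) or dCas9-KRAB LTR5HS Sp replicate 1 (0.83, adjusted p = 0.0652). For HEMK1 it did not pass without either of these libraries (0.70 and 0.56, adjusted p = 0.0724 and 0.129), without dCas9-VPR LTR5HS Sp replicate 1 (0.65, adjusted p = 0.0967) or without dCas9-KRAB nontarget Sp replicate 2 (0.65, adjusted p = 0.0557). C3orf18 and HEMK1 overlap over 1876 bp on opposite strands, with 0 bp shared by exons of their canonical transcripts. The strand setting of the counting is not given in the sources used here, so reads from the overlap cannot be assigned to either gene with certainty.

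ZMYND10 lay 174.6 kb from the guide sites and rose more than the nearer pair. It encodes a cytoplasmic factor for the assembly of the dynein arms that drive motile cilia. With dCas9-VPR it was at 5.79 and 6.36 CPM with recruitment, against 2.01 and 2.43 CPM with LTR5HS Sa and 1.39 and 2.26 CPM with nontarget Sp. The groups were apart, with a log2 fold change of 1.58 (SE 0.25, 2.997-fold, adjusted p = 0.00243). ZMYND10 had the lowest counts of the 10 genes, between 24 and 172 per library. With dCas9-KRAB it was at 1.34 and 2.30 CPM with recruitment and 1.90 to 2.64 CPM in control, groups that overlapped (log2 fold change -0.38, SE 0.30, adjusted p = 0.631). The fold changes differed by 1.96 between the fusions (SE 0.39, adjusted p = 0.00302).

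The genes on either side of ZMYND10 did not pass the threshold. RASSF1, a scaffold protein that binds the Hippo kinases and whose promoter is often methylated in tumours, was at 34.0 and 29.3 CPM with dCas9-VPR recruitment and 21.8 to 26.8 CPM in control (log2 fold change 0.38, SE 0.14, adjusted p = 0.0694). NPRL2, a subunit of the GATOR1 complex that restrains mTORC1 when amino acids are scarce, was at 14.6 and 18.5 CPM with recruitment and 13.6 to 19.2 CPM in control (-0.05, SE 0.19, adjusted p = 0.877). RASSF1 was higher in both recruitment libraries than in any control, and NPRL2 overlapped. The RASSF1 gene shares 790 bp with RASSF1-AS1 on the opposite strand, 107 bp of it in canonical exons. The limit given for C3orf18 and HEMK1 therefore holds for RASSF1 too, and RASSF1-AS1 had at most 10 counts in a library.

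CYB561D2, a transmembrane reductase of the cytochrome b561 family, was at 16.3 and 15.4 CPM with dCas9-VPR recruitment and 13.3 to 18.03 CPM in control (log2 fold change -0.01, SE 0.17, adjusted p = 0.985). TMEM115, a membrane protein of the Golgi, was at 61.6 and 69.3 CPM with recruitment and 39.9 to 55.6 CPM in control (0.40, SE 0.15, adjusted p = 0.0857). With the replicate number as a block TMEM115 passed (0.41, adjusted p = 0.0341). These genes overlap over 3711 bp on opposite strands, with 0 bp shared by canonical exons, so the limit given for C3orf18 and HEMK1 holds for them as well.

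At the far end, TUSC2, a small protein linked to mitochondria, was at 47.6 and 44.5 CPM with dCas9-VPR recruitment and 36.8 to 41.4 CPM in control (log2 fold change 0.25, SE 0.11, adjusted p = 0.127). HYAL2, a hyaluronidase anchored to the cell surface, was the member with the lowest fold change with dCas9-VPR. It was at 47.6 and 52.6 CPM with recruitment, 69.4 and 72.0 CPM with LTR5HS Sa, and 51.0 and 65.7 CPM with nontarget Sp. The recruitment libraries overlapped nontarget Sp and lay under LTR5HS Sa (log2 fold change -0.36, SE 0.16, adjusted p = 0.127). Against LTR5HS Sa alone HYAL2 passed as lower (-0.50, adjusted p = 0.00671), as it did without dCas9-VPR nontarget Sp replicate 1 (-0.47, adjusted p = 0.0134). TUSC2 and HYAL2 overlap over 2756 bp on the same strand, with 0 bp shared by canonical exons.

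With dCas9-KRAB the log2 fold changes of RASSF1, NPRL2, CYB561D2, TMEM115, TUSC2 and HYAL2 lay between -0.16 and 0.36, with adjusted p between 0.514 and 0.956. RASSF1 was at 28.7 and 35.4 CPM with recruitment and 18.4 to 34.0 CPM in control, the largest of these differences (0.36, SE 0.22). CYB561D2 was at 6.89 and 7.24 CPM with recruitment and 7.51 to 8.70 CPM in control (-0.16, SE 0.17), and it was the only member beside CACNA2D2 whose recruitment libraries both lay under every control library. Counting groups that did not overlap, 7 of the 10 genes lay higher with dCas9-VPR recruitment and 0 lower, and 2 lay lower with dCas9-KRAB. Among all genes tested, 49.9% with dCas9-VPR and 23.3% with dCas9-KRAB did not overlap.

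The control arrays, which carry LTR5HS guides that S. pyogenes dCas9 cannot load or guides without a target, were compared to see how far levels moved without recruitment. Of the 10 genes 0 passed with either fusion in edgeR or DESeq2, against 4.51% of all genes with dCas9-VPR and 0.567% with dCas9-KRAB. At an unadjusted p under 0.05 there were 0 with dCas9-VPR and 1 with dCas9-KRAB. That 1 was CACNA2D2, higher with LTR5HS Sa (log2 fold change 0.31, SE 0.13, adjusted p = 0.486). With dCas9-VPR the log2 differences of the 10 genes ran from 0.0333 to 0.298, all higher with LTR5HS Sa. With the replicate block HYAL2 passed there (0.31, adjusted p = 0.0359). For each of the 10 genes nontarget Sp replicate 1 was the lowest dCas9-VPR control library. In replicate 2 CACNA2D2, CYB561D2, NPRL2 and C3orf18 were higher with nontarget Sp than with LTR5HS Sa, and the other members lower. Without nontarget Sp replicate 1 the log2 difference of HYAL2 was 0.116 rather than 0.296, with 1 nontarget Sp library left.

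Per length of transcript, CACNA2D2 stood in the middle of the interval without recruitment. In the dCas9-VPR controls HYAL2 (26.8 ± 3.89 CPM per kb, SD, n = 4), TMEM115 (23.7 ± 3.39) and TUSC2 (23.05 ± 1.12) were highest and overlapped each other. Apart from these, RASSF1, NPRL2, CACNA2D2 and CYB561D2 followed, each overlapping the next, with CACNA2D2 at 7.885 ± 0.616 CPM per kb. Below them and apart from CYB561D2, C3orf18 (4.91 ± 0.36) and HEMK1 (4.04 ± 0.46) overlapped, and ZMYND10 was lowest at 1.08 ± 0.24 CPM per kb. In the dCas9-KRAB controls TUSC2 and HYAL2 were highest and overlapped, ZMYND10 was again lowest, and CACNA2D2 was at 10.9 ± 1.34 CPM per kb.

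The controls of the fusions differed at several of these genes. CYB561D2 was 2.01 times and TMEM115 1.798 times as high in the dCas9-VPR as in the dCas9-KRAB controls, and HEMK1 1.315 times. CACNA2D2 (0.721 times) and C3orf18 (0.737 times) were lower in the dCas9-VPR controls. For these 5 genes the 4 libraries of each kind did not overlap, and neither did they for 48.4% of the 15145 genes tested with both fusions.

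To place the interval in its surroundings, other genes with a start within 1 Mb of the guide sites were counted. Of 39 such genes 29 were tested, and with dCas9-VPR 8 of them passed, 5 as higher and 3 as lower. That is 27.6%, close to the 28.0% among all genes tested, and the median log2 fold change of the 29 was -0.07. With dCas9-KRAB 0 passed in edgeR, 3 at an unadjusted p under 0.05 and 1 in DESeq2. Among the genes higher with dCas9-VPR, MAPKAPK3, a kinase downstream of p38, started 96.5 kb from the sites beyond HEMK1 and was at 132 ± 6.48 (SD, n = 2) against 80.2 ± 10.6 CPM (SD, n = 4). HYAL3, a hyaluronidase gene 221 kb away beyond HYAL2, was at 21.0 ± 1.94 against 10.3 ± 0.97 CPM (log2 fold change 1.02, SE 0.15, adjusted p = 0.00185). SEMA3B, a secreted semaphorin at 251 kb, BSN, a presynaptic scaffold at 966 kb, and MANF, a secreted protein of the endoplasmic reticulum at 865 kb, had log2 fold changes of 0.87, 0.85 and 0.46.

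The 3 lower genes were DOCK3, a neuronal exchange factor for Rac at 154 kb (log2 fold change -0.49), and, farther out, the receptor tyrosine kinase gene MST1R at 616 kb and CAMKV, a pseudokinase gene, at 650 kb. MST1R was at 1.5 against 7.43 CPM (-2.30, SE 0.24, adjusted p = 0.000269). CAMKV was at 0.138 against 1.55 CPM (adjusted p = 0.00163), the former below the level of 3 counts, so its fold is not given. Within 250 kb of the sites, ZMYND10, HYAL3, C3orf18, HEMK1, MAPKAPK3 and CACNA2D2 were higher and DOCK3 lower. These were 7 of 17 genes tested there (41.2%), members included, where 28.0% of all genes passed. Without the 10 members it was 3 of 7 (42.9%), 2 as higher and 1 as lower, at a median log2 fold change of -0.05.

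**Figure D3:**
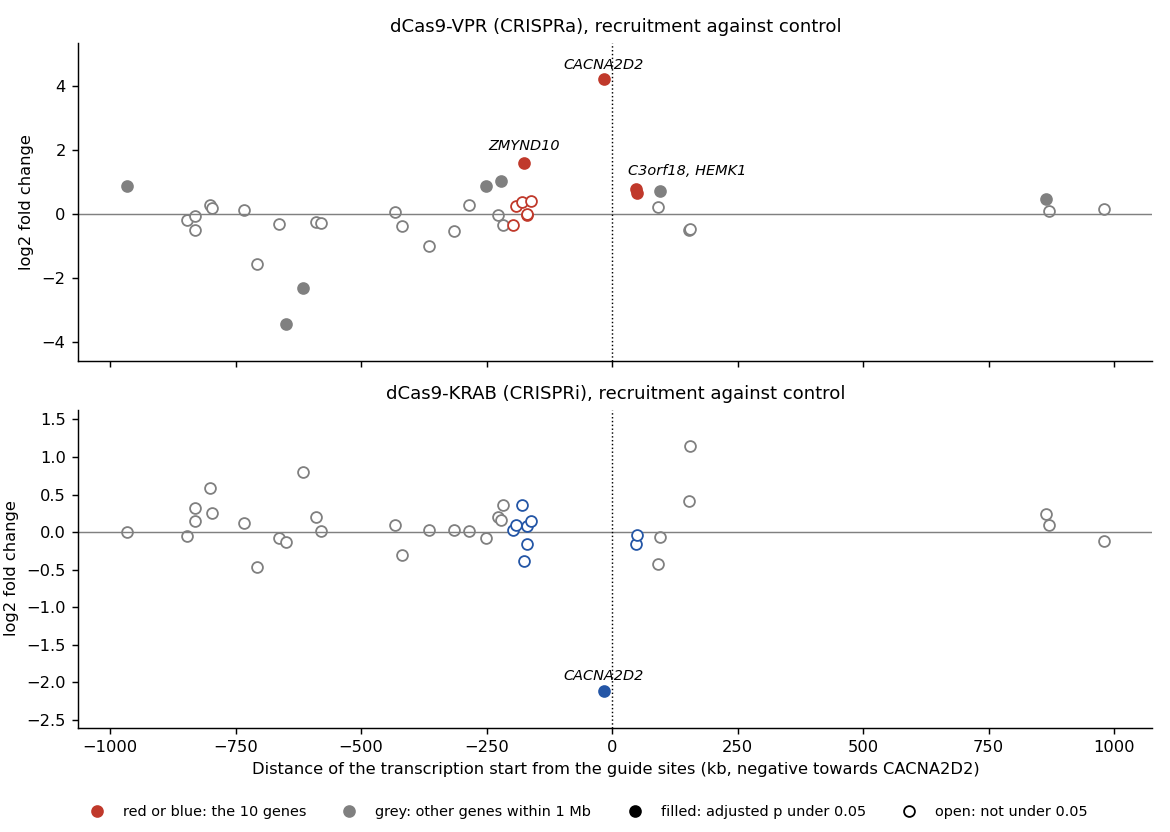
Log2 fold change of recruitment against control for genes whose start lies within 1 Mb of the guide sites, against the distance of the start in kb, for dCas9-VPR (upper) and dCas9-KRAB (lower), whose vertical axes differ. The 10 genes are coloured and other genes grey, and filled points passed an adjusted p of 0.05. CACNA2D2 stands at 4.19 and -2.11, and no other point is filled with dCas9-KRAB.

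The same distances can be read across the genome. Of 371 genes tested with dCas9-VPR whose start lay under 25 kb from a group of guide sites, 72.0% were higher with recruitment, at a median log2 fold change of 1.24 (quartiles 0.562 and 2.44). CACNA2D2 ranked 38th from the highest of them. With dCas9-KRAB 43.8% of 338 such genes were lower, at a median of -0.739, and CACNA2D2 ranked 63rd from the lowest. In the band from 25 to 75 kb, which held C3orf18 and HEMK1, 52.7% of 556 genes were higher with dCas9-VPR (median 0.571) and 13.7% of 512 were lower with dCas9-KRAB. In the band from 75 to 250 kb, which held the other 7 members, the shares were 22.6% and 2.33%. The median there was 0.153 with dCas9-VPR and the quartiles -0.145 and 0.534, so that ZMYND10 lay above and HYAL2 below the middle range of that band, and the other 5 within it.

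**Figure D4:**
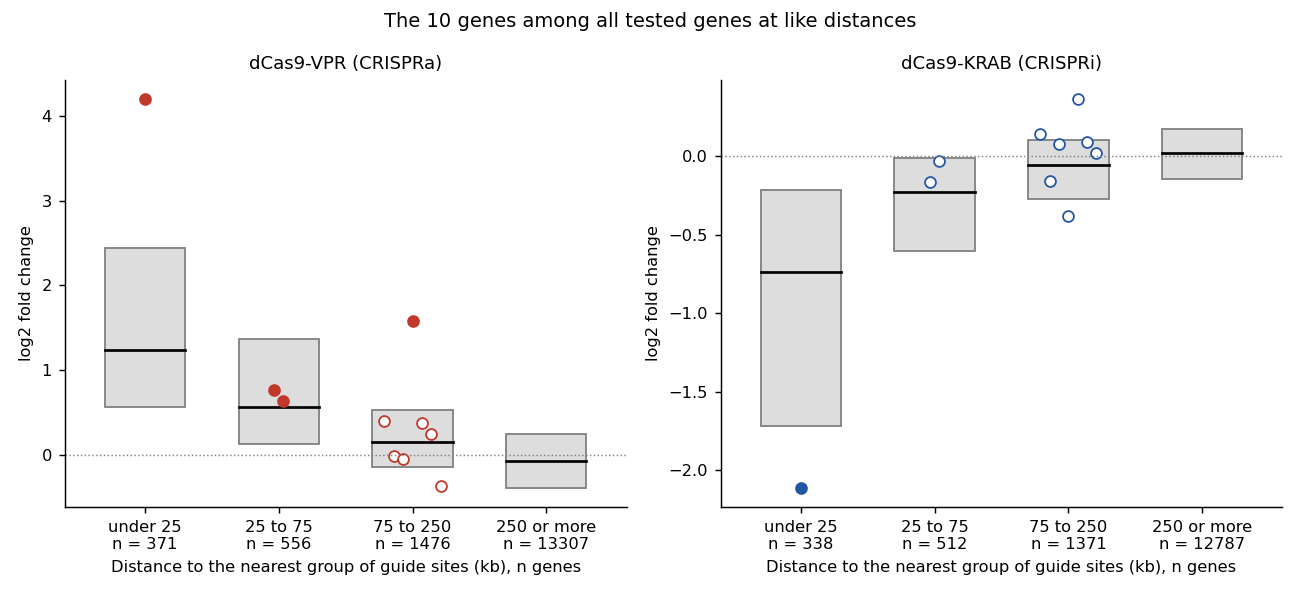
Log2 fold change of recruitment against control by distance to the nearest group of guide sites. Grey boxes run from the lower to the upper quartile of all tested genes in a band with the median as a line, and points are the 10 genes, filled where they passed an adjusted p of 0.05. CACNA2D2 lies outside the box of its band with both fusions, and C3orf18 and HEMK1 lie inside theirs.

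Over the 12 libraries, the genes whose log2 CPM followed that of CACNA2D2 most closely lay on other chromosomes. Pearson's r was 0.997 for PVR and PTPRU, 0.996 for RAB15, 0.995 for ATG9B and 0.992 for SERPINB9P1, among 15144 genes. These are descriptions over libraries that share their lines and groups, and any gene that rose with dCas9-VPR and fell with dCas9-KRAB scores high. RAB15, a small GTPase gene 6.403 kb from a group of guide sites, was at 1017 against 41.0 CPM with dCas9-VPR and 12.7 against 63.9 CPM with dCas9-KRAB, values close to those of CACNA2D2. PVR, the poliovirus receptor, started 49.0 kb, PTPRU, a receptor phosphatase, 102 kb, ATG9B, an autophagy protein, 3.09 kb, and the pseudogene SERPINB9P1 27.7 kb from such a group. Of the other 9 members ZMYND10 was the most alike (r = 0.917, rank 234), and NPRL2 the least (r = -0.300).

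Genes related to the 10 members by family or pathway were then counted from lists. The counts are to be read against all genes tested, of which 28.0% passed with dCas9-VPR (15.7% as higher, 12.3% as lower, median log2 fold change -0.02) and 2.77% with dCas9-KRAB. Of 26 other genes listed under voltage-gated calcium channel subunits, CACHD1 and the CACNG genes included, 23 were tested with dCas9-VPR. Being listed does not mean that a gene works with CACNA2D2. Of the 23, 14 passed (60.9%), 10 as higher and 4 as lower, at a median log2 fold change of 0.76. CACNA2D3, which encodes another alpha2delta protein, was at 45.4 ± 0.34 against 1.99 ± 0.50 CPM (log2 fold change 4.50, SE 0.21, adjusted p = 5.45e-06), and its start lay 144 kb from a group of guide sites. CACNA2D4 rose as well (3.09, SE 0.46), at a distance of 2803 kb, and CACNA2D1 did not pass (0.43, SE 0.25, adjusted p = 0.245). CACNG5 passed as lower (adjusted p = 0.00853), at 0.0267 against 0.666 CPM, the former below the level of 3 counts. With dCas9-KRAB 1 of 19 tested passed, CACNG7, at 2.099 against 7.73 CPM (-1.89, SE 0.26, adjusted p = 0.00289 by edgeR). Its start lay 69.8 kb from a group of guide sites. CACNA2D3 and CACNA2D4 did not pass with dCas9-KRAB (-0.33 and -0.80, adjusted p = 0.549 and 0.520).

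The amino acid sensing genes around NPRL2 (GATOR1, GATOR2, KICSTOR, sestrins, CASTOR and Rag GTPases) had a median log2 fold change of 0.04 with dCas9-VPR. Of 20 tested 2 passed, both as higher, where 8 had an unadjusted p under 0.05 and 4 passed in DESeq2. These 2 were GATSL2 (CASTOR2, log2 fold change 0.71, SE 0.13) and RRAGA (0.44, SE 0.13). GATSL2 has near-identical copies in the genome, so its counts are uncertain. With dCas9-KRAB 0 of 20 passed in edgeR, 5 at an unadjusted p under 0.05 and 1 in DESeq2. With the replicate block RRAGC passed as well with dCas9-VPR (0.37, adjusted p = 0.0257), and SEC13, of GATOR2, passed as higher with dCas9-KRAB (0.52, adjusted p = 0.0472). NPRL3 and DEPDC5, the partners of NPRL2 in GATOR1, had log2 fold changes of -0.16 and -0.0044 with dCas9-VPR.

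Of 18 genes of the RASSF family and the Hippo cascade, 6 passed with dCas9-VPR (33.3%), 3 in each direction and at a median log2 fold change of -0.22, among them RASSF9 (log2 fold change 2.91, SE 0.33) and RASSF10 (1.57 against 0.140 CPM, the latter near the level of 3 counts) as higher and STK3, a Hippo kinase, as lower (-0.82, SE 0.19). With dCas9-KRAB 0 of 16 passed, 2 at an unadjusted p under 0.05 and 1 in DESeq2. Of the hyaluronan enzymes and receptor 5 of 9 passed with dCas9-VPR (55.6%, median 0.43), 3 as higher and 2 as lower. The higher ones were HAS1, a hyaluronan synthase (2.00, SE 0.58), the receptor CD44 (1.04, SE 0.30) and HYAL3, given above. HAS1 was at 1.01 against 0.253 CPM and had at most 35 counts in a library. With dCas9-KRAB 0 of 8 passed in edgeR and DESeq2, and 1 at an unadjusted p under 0.05.

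Of the other dynein arm assembly factors 0 of 13 passed as higher with dCas9-VPR beside ZMYND10, and 2 passed as lower, SPAG1 (-1.28, SE 0.22) and PIH1D1 (-0.60, SE 0.14), or 15.4% in all. With the replicate block PIH1D2 passed as higher (1.06, adjusted p = 0.0332). With dCas9-KRAB DNAAF1 alone of 13 passed, as higher (2.55, SE 0.49), at 1.08 against 0.172 CPM and at most 23 counts in a library. Of 7 translation release factors and their methyltransferases 0 passed with either fusion in edgeR or DESeq2, and 1 with dCas9-VPR and 0 with dCas9-KRAB had an unadjusted p under 0.05. Of 5 cytochrome b561 genes CYB561 passed with dCas9-VPR (0.93, SE 0.14), and 0 passed with dCas9-KRAB in edgeR or DESeq2 or at an unadjusted p under 0.05.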

How the data were processed

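Per the submitters' processing notes, reads were made with CASAVA 1.8, trimmed with cutadapt 1.8.1, aligned with HISAT2 2.1.0 to hg38 and counted with featureCounts 1.4.6-p2. The authors deposited these as raw, unnormalized counts. The gene length in bp deposited beside them was used for CPM per kb. The annotation and strand setting are not given in the sources used here.

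Differences were tested in R 4.3.3 with edgeR 4.0.16 (filterByExpr, TMM, quasi-likelihood F-test, Benjamini-Hochberg adjustment over all tested genes, threshold 0.05). DESeq2 1.42.0, other filters, controls and size factors, the replicate block and leaving out each library were alternatives. Scripts were tested on simulated data. Replicate numbers come from the labels, and replicate differences correlated between arrays by 0.205 to 0.509, so the block is given where it changes a call of a member, a listed gene or a gene within 1 Mb. The extract protocol in the labels calls replicates independent.

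The LTR5HS was located by searching hg38 for the guide sequences. Distances run from the GENCODE 44 start to the nearest group of sites matched by at least 2 guides, so a site of a single guide may lie nearer. Of 26641 names 24515 (92.0%) matched an annotated gene, some through RefSeq synonyms. Named beside the 10 members are called genes within 1 Mb, up to 3 called genes per list by fold change, and the 5 genes most like CACNA2D2. CACNG7, CACNA2D1, NPRL3, DEPDC5, NANOG, TDGF1, POU5F1, VIM and genes whose call the block changed were added after their values were seen. Likeness used log2(CPM + 0.5). Members and lists were chosen with earlier results of these data known. Floors of 3 counts cover counting error only. Python 3.11.15 and pandas 2.3.3 were used for the rest.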

Additional observations from a re-analysis of the deposited data

Results flagged for a closer look

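The change with recruitment differed between the fusions for 4 of the 10 genes in edgeR's interaction test, which 21.0% of the 16673 genes tested passed. CACNA2D2 had a difference of 6.31 between its log2 fold changes with dCas9-VPR and dCas9-KRAB, ZMYND10 of 1.96, C3orf18 of 0.934 and HEMK1 of 0.675. For ZMYND10, C3orf18 and HEMK1 this came with a rise that passed with dCas9-VPR and no passing change with dCas9-KRAB, while CACNA2D2 passed with both. The interaction of C3orf18 was lost without dCas9-VPR LTR5HS Sp replicate 2 (adjusted p = 0.0611) or dCas9-KRAB LTR5HS Sp replicate 1 (adjusted p = 0.0652). That of HEMK1 was lost without either of these, without dCas9-VPR LTR5HS Sp replicate 1 or without dCas9-KRAB nontarget Sp replicate 2 (adjusted p between 0.0557 and 0.129).

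In the dCas9-VPR controls, nontarget Sp replicate 1 had a C3orf18 level of 12.38 CPM, far below the other 3 control libraries at 14.25 to 14.54 CPM relative to their spread. It was the 1 group set apart in this way among 20 groups of 4 control libraries. Dixon's criterion sets apart about 1 group in 20 when no library differs. Groups of the same fusion share their libraries, so they are not independent and this rate cannot tell whether a library differs. Nontarget Sp replicate 1 was the lowest dCas9-VPR control library for every member, not for C3orf18 alone. Without that library the log2 fold change of C3orf18 with dCas9-VPR was 0.714 (adjusted p = 0.00757 in edgeR).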

How the results depend on the processing

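No alternative ended the call of CACNA2D2 or ZMYND10 or turned their direction. With dCas9-KRAB CACNA2D2 was the 1 member called under all 14 alternatives. The number of members called was 4 with dCas9-VPR and ranged from 2 to 5 on leaving out each library, with 2 without dCas9-VPR LTR5HS Sp replicate 2. For the interaction it was 4 and ranged from 2 to 5, with 2 without dCas9-VPR LTR5HS Sp replicate 2 or dCas9-KRAB LTR5HS Sp replicate 1, where C3orf18 and HEMK1 were lost. The replicate block gave 5 members with dCas9-VPR (TMEM115 added), 1 with dCas9-KRAB, 4 in the interaction, and 1 rather than 0 between the dCas9-VPR control arrays (HYAL2). Among the lists and the genes within 1 Mb it added RRAGC, RASSF7, RASSF8, PIH1D2, GDF3 and RBM6 with dCas9-VPR and SEC13 with dCas9-KRAB, and ended the call of CACHD1 (adjusted p = 0.0552). It changed no other call of these genes. CYB561D2 with dCas9-VPR turned from -0.0051 to 0.00477 with at least 10 counts in every library, 0.00504 with the block and 0.0253 with nontarget Sp alone as control, where NPRL2 turned to 0.0196. On leaving out each library CYB561D2 ranged from -0.088 to 0.059 and NPRL2 from -0.237 to 0.118 with dCas9-VPR, and with dCas9-KRAB HEMK1 ranged from -0.133 to 0.0572, NPRL2 from -0.0955 to 0.228 and HYAL2 from -0.142 to 0.168. None of these passed the threshold, and the cause was not tested. Around the LTR5HS, 2.56% of genes passed with dCas9-KRAB within 1 Mb, 4.35% within 500 kb and 5.88% within 250 kb, where CACNA2D2 was the 1 gene called among fewer genes tested. Guides matching the LTR5HS were 5, and 8 with 1 mismatch allowed. Where an arm was left with 1 library, that library was assumed to vary like the others. The lowest counts, and so the widest errors, were those of ZMYND10, at 24 to 172 per library.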
